A study of Mus musculus with 2 samples.

Results

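Sox, forkhead, GATA and T-box genes encode the families of DNA-binding transcription factors that set up cell lineages in the embryo. They were picked out of the array by name: every gene probe whose accession maps to a mouse symbol of one of these families was kept, with the mesendoderm homeobox gene Mixl1 added and Sox2 left out. This gave 59 genes on 60 probes, out of 10149 named genes and 21052 gene probes. Gata4, Gata6 and Eomes were not analysed here. The tested RNA came from EB5 mouse embryonic stem (ES) cells, grown without feeders, that had received Klf4 siRNA together with the pCAGEGFP-IP plasmid; RNA was taken after 24 h of culture and another 24 h of selection in puromycin. It was labelled with Cy3 on 2 two-colour arrays and forms 1 group, siKlf4 ES cells (n = 2). The comparison RNA, labelled with Cy5 on both arrays, was a commercial pool of 11 cultured mouse cell lines, made of equal parts from embryo, embryonic fibroblast, kidney, liver, macrophage, B and T lymphocyte, mammary, myoblast, skin and testis lines. No ES cells without Klf4 siRNA were analysed here, so the values set ES cells against other cell types and carry no measure of the siRNA. The labels do not say whether the arrays hold separate cultures, so the p-values measure only the spread between these arrays, which may be technical. The dyes were not swapped, and dye cannot be told apart from RNA source in any ratio.

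The families differ in the domain that grips DNA. Sox factors bend DNA with an HMG box and usually act with a partner, as Sox2 does with Oct3/4 in ES cells. Forkhead (Fox) factors bind with a winged helix and some, such as the Foxa proteins, can open closed chromatin. GATA factors use zinc fingers and guide blood, T cell, trophoblast and endoderm fates, and T-box factors, named after T (brachyury), guide mesoderm, limb and heart formation. In undifferentiated ES cells most lineage members are held silent, while a few, Foxd3 among them, belong to the pluripotent state.

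The ES cells carried the marks of their label: of 9 measured pluripotency markers, 7 were at least 2-fold higher than in the pool, with a median log2 ratio of 3.67. That median is the value of Dppa5a, whose ES spots were saturated on both arrays, so it is a lower limit. Fgf4 (0.00) did not differ 2-fold, and Esrrb did not exceed the negative controls, spots without mouse sequence, in either RNA. Signals are given as units above local background, array 1 first; the median gene probe read 308 and 355 units for ES cells, against 246 and 264 for the reference. The negative controls themselves read medians of 129 and 138 units for ES cells, against 28.5 and 32.3 for the reference. A probe is called above the negative controls where it exceeded their 95th percentile, at 155 and 178 units for ES cells and 40.9 and 58.4 for the reference. Whether a probe above them read only its own transcript was not tested, so such a signal alone does not show that the gene was expressed. A pair of log2 ratios gives array 1 and array 2, and a single one is their mean. All log2 ratios below are ES over reference, after background correction and loess normalisation, so a raw ES signal near these limits can go with a ratio below 0 even where it exceeds the raw reference signal. In RNA from whole cultures or pools, fewer expressing cells and less RNA per cell cannot be told apart.

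Of the 60 probes, 59 were tested and 1, for Gata5, was left out because the scanner software marked its spot as uneven. A probe was called where it differed at least 2-fold, with an adjusted p under 0.05 (limma, Benjamini-Hochberg over all 21028 probes tested) and the same sign on both arrays. By this rule 3 probes, for the genes Sox13 (both probes) and Foxd3, were higher in the ES cells, and 6 were lower, for Foxf2, Tbx15, Foxc1, Gata3, Foxd1 and Gata2. Higher calls made up 5.08% of the member probes and 5.08% of all probes. Lower calls made up 10.2% of the member probes and 5.19% of all probes. Among probes that carry a gene symbol, as all members do, 6.76% were called higher and 7.4% lower. Most members stood near the pool: 46 of the 59 ratios (78%) lay within 0.52, the largest absolute mean log2 ratio at a negative control spot. So did 77% of all probes and 69.9% of those that carry a symbol. The median member stood at -0.06, beside -0.01 for all probes. With no limit on size, 8 member probes passed as higher and 29 (49.2%) as lower, against 31.6% and 31.4% of all probes. Of the 10410 tested probes that carry a symbol, 3640 then passed as higher and 3550 as lower. With median centring in place of loess, 14 (23.7%) passed as higher and 32 (54.2%) as lower, against 36.1% and 35.7% of all probes. With no limit on size, 121 of the 162 negative control spots also passed when fitted on their own.

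**Figure D1:**
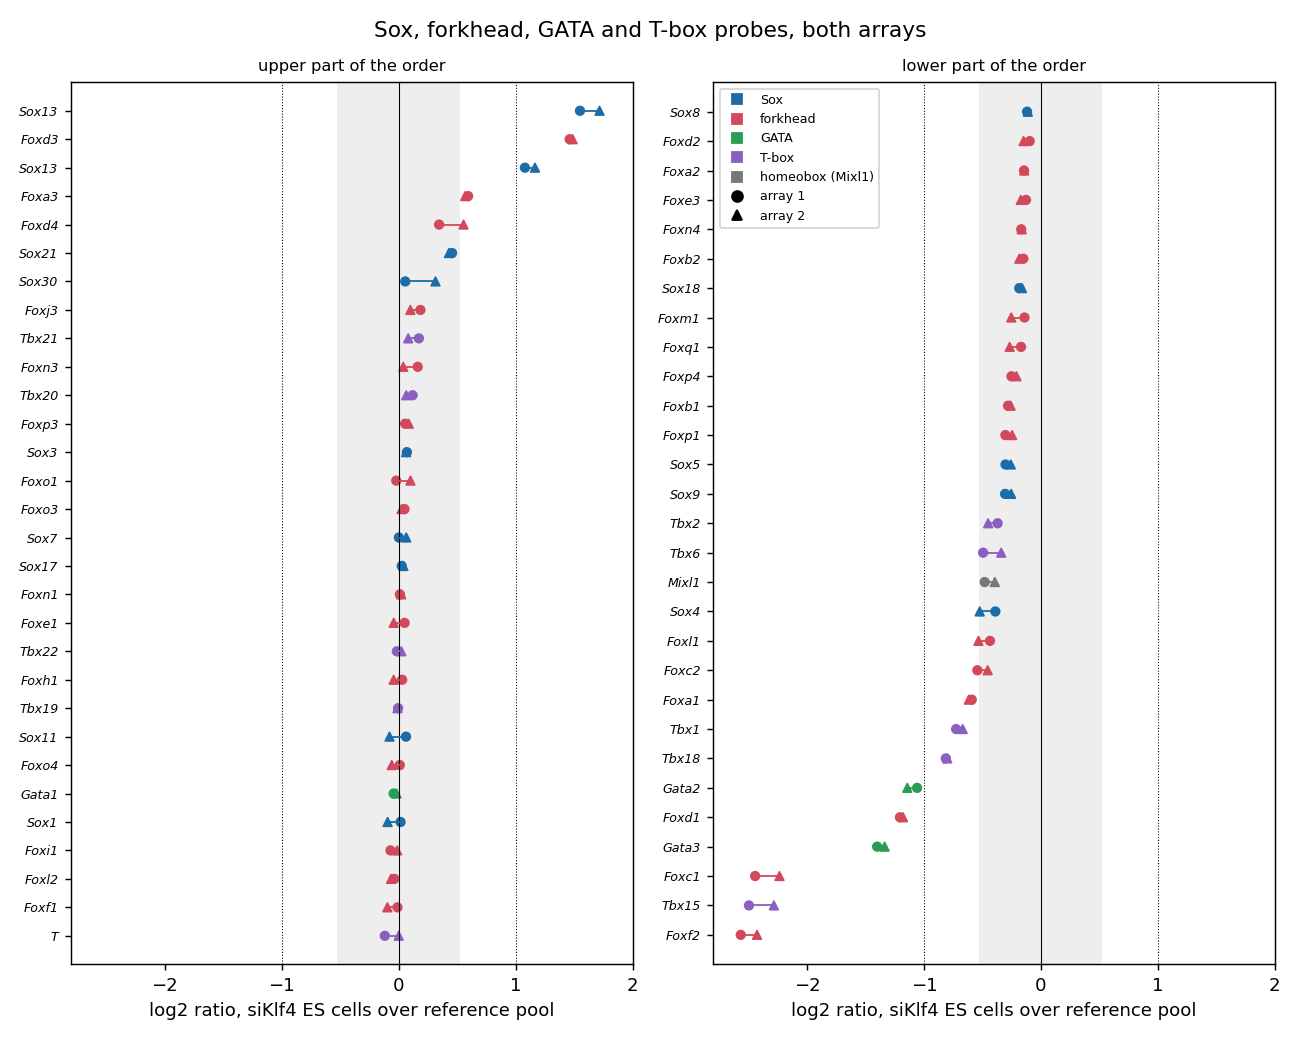
Log2 ratio of siKlf4 ES cells over the reference pool (x axis) for the 59 tested Sox, forkhead, GATA, T-box and Mixl1 probes, 1 row a probe in order of the mean, split over 2 panels. Circles are array 1 and triangles array 2, colour gives the family, the grey band spans the negative control spots (0.52 either way) and dotted lines mark 2-fold; 3 probes lie beyond the right line and 6 beyond the left.

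**Figure D2:**
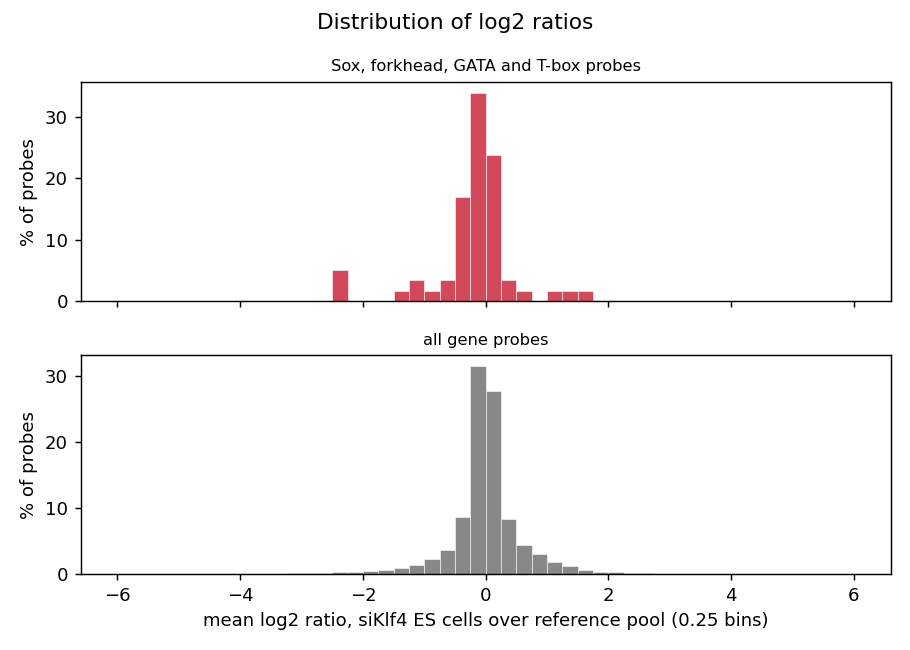
Share of probes (y axis, percent) by mean log2 ratio of siKlf4 ES cells over the reference pool (x axis, bins of 0.25) for the 59 member probes (top) and all 21028 probes (bottom). Both pile up around 0, and 3 member probes form a separate bar between -2.5 and -2.25.

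The ratios rest on 60-base oligonucleotides, and those of the called genes are given here, 5′ to 3′ as the scanner files list them, so that each value can be traced to the stretch of transcript it measured. No stretch is singled out in capitals. Among all 60 member probes, the most bases that any pair shared in an ungapped alignment was 29.
Sox13, 31.7% GC probe (chromosome 1): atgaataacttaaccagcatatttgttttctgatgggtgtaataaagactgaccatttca
Sox13, 23.3% GC probe (chromosome 1): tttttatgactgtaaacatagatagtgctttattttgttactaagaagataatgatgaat
Foxd3 (chromosome 4): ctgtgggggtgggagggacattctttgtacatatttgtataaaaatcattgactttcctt
Foxf2 (chromosome 13): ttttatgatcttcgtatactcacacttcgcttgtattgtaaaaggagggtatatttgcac
Foxc1 (chromosome 13): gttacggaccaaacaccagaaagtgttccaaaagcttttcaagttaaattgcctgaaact
Foxd1 (chromosome 13): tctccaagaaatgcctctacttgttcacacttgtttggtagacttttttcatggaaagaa
Tbx15 (chromosome 3): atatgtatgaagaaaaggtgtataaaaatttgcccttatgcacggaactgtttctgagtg
Gata3 (chromosome 2): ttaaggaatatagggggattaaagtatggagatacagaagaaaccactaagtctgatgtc
Gata2 (chromosome 6): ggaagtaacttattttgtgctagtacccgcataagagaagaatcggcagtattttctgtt

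Foxd3, a repressor needed to keep pluripotent cells and neural crest progenitors undifferentiated, was the forkhead gene that stood highest above the pool. Its probe gave 465.9 and 521.8 units above background in the ES cells, against 118.7 and 120.1 in the reference. Both ES signals were well clear of the negative controls and of the reference, and the log2 ratios of 1.46 and 1.49 (mean 1.47 ± 0.017, SD, n = 2) amount to 2.78-fold (limma, adjusted p = 2.82e-06). Its 3 measured FoxD relatives did not share this. Foxd4 stood at 0.34 and 0.55, within the band of the negative controls on 1 array, and passed no 2-fold limit, although it reached 1.04 with the negative control spots as background. Foxd2, bright in both channels (1041 and 1551 units in ES cells, 1232 and 1643 in the reference), stood at -0.10 and -0.15, and Foxd1 was called lower.

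Sox13, a SoxD protein without an activation domain of its own that is known from T cell and cartilage development, was called higher by both of its probes. The probe with 31.7% GC read 363.9 and 443.7 units in the ES cells, against 65.67 and 69.78 in the reference, a log2 ratio of 1.63 ± 0.12 (limma, adjusted p = 5.87e-06). The brighter probe, with 23.3% GC, read 503.0 and 655.4 units in the ES cells, against 194.1 and 227.2 in the reference, a log2 ratio of 1.12 ± 0.061 (adjusted p = 9.58e-06). The probes agreed in direction on both arrays and differed in size, 3.10-fold against 2.18-fold. Sox5, the other SoxD gene measured, stood at -0.30 and -0.26 (790.9 and 1019 units in ES cells, 1061 and 1159 in the reference). Without background correction neither Sox13 probe (0.56 and 0.56, the 23.3% GC probe at 0.555) nor Foxd3 (0.61) reached 2-fold.

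The 3 lowest ratios belonged to mesenchymal regulators. Foxf2, a forkhead factor of gut and palate mesenchyme, read 219.7 and 266.3 units in the ES cells, against 1162 and 1169 in the reference. Its log2 ratio was -2.50 ± 0.098 (limma, adjusted p = 1.42e-06), which puts the reference 5.64-fold higher. Foxc1, needed for somites, eye and meninges, read 163.7 and 193.9 units in the ES cells, against 674.0 and 642.7 in the reference. Its ES signals were only just above the negative controls, and its log2 ratio of -2.34 ± 0.15 (adjusted p = 2.82e-06) stood at -3.71 with those spots as background and at -0.998 without background correction. Tbx15, a T-box factor of skeleton and dermis, read 235.6 and 292.4 units in the ES cells, against 1216 and 1188 in the reference, a log2 ratio of -2.39 ± 0.15 (adjusted p = 2.80e-06). Before normalisation, the ES signals of all 3 genes lay below their reference signals, on channels whose negative controls read at different levels. For these 3 genes the arrays differed by 0.14 (Foxf2), 0.21 (Foxc1) and 0.21 (Tbx15) on the log2 scale. That was more than the median member at 0.058 and little beside the ratios themselves. Tbx18, a close relative of Tbx15, stood at -0.81 ± 0.0086, and Tbx1 at -0.70 ± 0.040; neither was above the negative controls in the ES cells, so on the background-corrected scale the reference was at least 1.49-fold and at least 1.24-fold higher. Without background correction their log2 ratios were -0.21 and -0.15, and every bound of this kind given here is on the background-corrected scale only. In the fibroblast and muscle list 3 of 7 measured genes were called lower and none higher, with a median of -0.56. Called lower were Vim at -3.81, Col1a1 at -2.91 and Twist1 at -1.40. The muscle genes Myod1 (0.02), Des (-0.21) and Myog (-0.29) lay within the band of the negative controls. The share of fibroblast and muscle cells in the ratios was not tested.

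**Figure D3:**
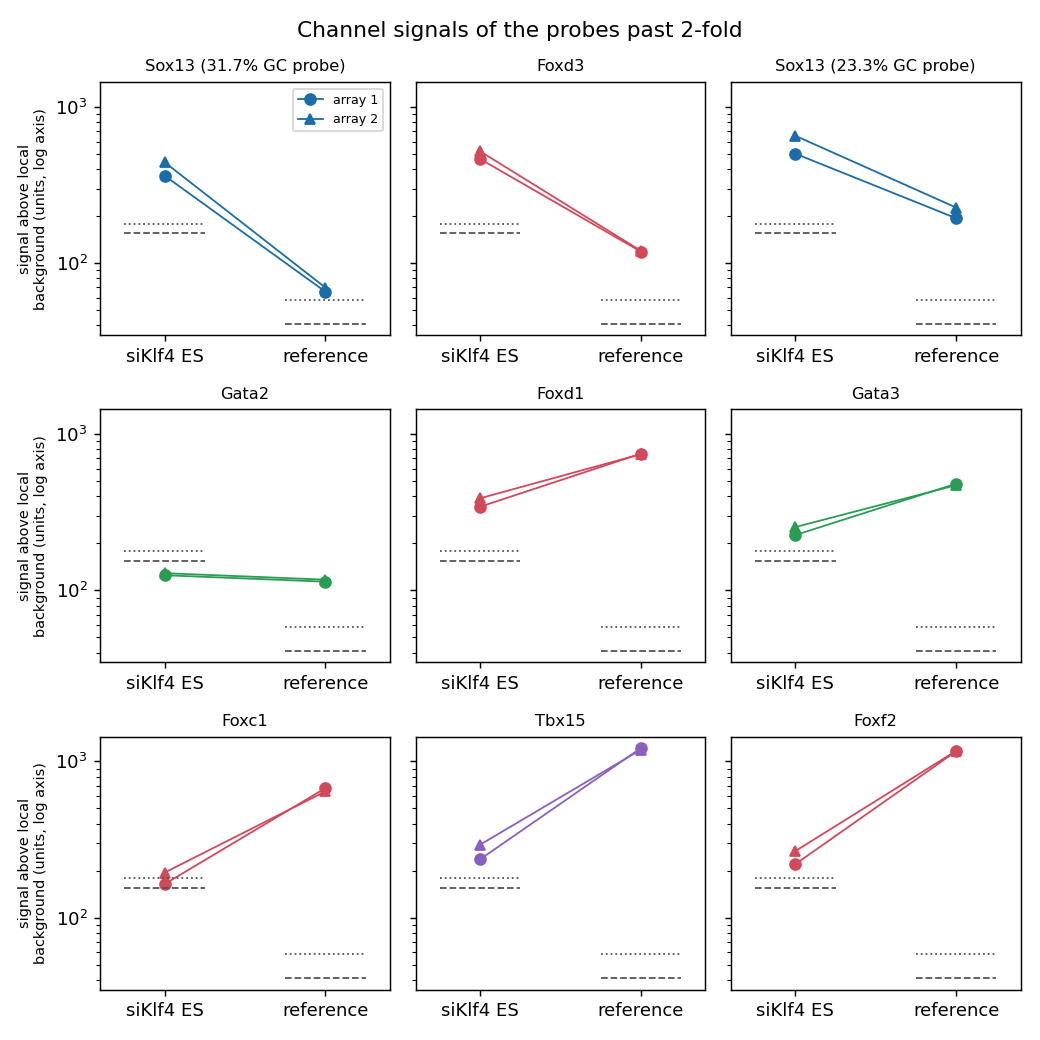
Signal above local background (y axis, arbitrary units, log axis) in siKlf4 ES cells (left) and the reference pool (right) for the 9 probes past 2-fold, circles for array 1 and triangles for array 2, before normalisation. Dashed (array 1) and dotted (array 2) bars give the level that 95 percent of negative controls stay under; Gata2 lies under it in ES cells, and Foxf2, Tbx15 and Foxc1 lie far higher in the reference.

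Foxf2 and Foxc1 are direct neighbours on chromosome 13, next to Foxq1, with no protein-coding gene between the members of either pair in the RefSeq annotation. Foxq1 stood apart from them at -0.17 and -0.27, with 511.8 and 507.3 units in the ES cells, against 565.7 and 518.3 in the reference. The paralogous cluster on chromosome 8 holds Foxf1, Foxc2 and Foxl1. There Foxf1 stood at -0.01 and -0.10 on the 2 arrays, Foxc2 at -0.54 and -0.45 and Foxl1 at -0.43 and -0.53, so the FoxF and FoxC genes of chromosome 8 stood much nearer to the pool than those of chromosome 13. The difference between the clusters was not tested. Another pair of neighbours, Foxd2 and Foxe3 on chromosome 4, stood at -0.12 and -0.15.

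Gata3, which drives T helper cell and trophoblast fates, read 226.1 and 254.4 units in the ES cells, against 482.3 and 471.7 in the reference. Its log2 ratio was -1.37 ± 0.045 (limma, adjusted p = 4.32e-06), which puts the reference 2.58-fold higher. Gata2, a factor of blood stem cells, trophoblast and mast cells, was not above the negative controls in the ES cells on either array (125.0 and 128.9 units), against 113.7 and 117.1 in the reference. Its fitted log2 ratio of -1.10 ± 0.059 (adjusted p = 1.01e-05) therefore gives only a bound on the background-corrected scale, where the reference was at least 1.49-fold higher; without background correction the log2 ratio was -0.26. With median centring in place of loess Gata2 stood at -0.89 and was not called. Gata1, the erythroid factor, gave 1022 and 1306 units in the ES cells and 1165 and 1265 in the reference, and its ratios of -0.04 and -0.02 did not pass (limma, adjusted p = 0.488). Under median centring Gata1 stood at -0.26 (limma, adjusted p = 0.00276). Gata5, an endoderm and heart factor, had no usable ratio. On array 1 its spot was marked uneven in both channels, with a mean of 1994 units but a pixel median of 685.5 in the ES channel. On array 2 it was even and read 353.4 units in the ES cells and 235.0 in the reference, a log2 ratio of 0.09. In the list of lymphocyte and blood genes, 2 of 13 measured members were called lower, Ptprc at -2.19 (at least 4.11-fold, being below the negative controls in ES cells) and Cd79b at -2.14, and none higher. With no limit on size the same list had 4 members higher, Lck (0.36), Cd79a (0.19), Cd3e (0.15) and Il2ra (0.12), and 6 lower. The shares of all probes passing in that way were 31.6% and 31.4%. Those 4 higher members all lay within the band of the negative controls. Beyond that band 0 members of the list were higher and 4 lower, Cd3g (-0.89) and Thy1 (-0.56) among them. The part of the pool's lymphocytes in the Gata3 ratio was not tested.

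Foxd1, a factor of kidney stroma and retina, is, like Foxf2 and Foxc1, on chromosome 13. It read 343.0 and 388.7 units in the ES cells, against 750.5 and 745.2 in the reference, a log2 ratio of -1.19 ± 0.018 (limma, adjusted p = 5.45e-06). This ratio puts the reference 2.28-fold higher.

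Among the other 12 Sox genes measured, 0 were called at 2-fold by limma, although at an unadjusted p under 0.05 and any size 2 lay higher and 5 lower. With Sox13 included, 3 of 14 Sox probes passed as higher and 5 as lower at an adjusted p under 0.05 and any size. Of all probes, 31.6% and 31.4% did so. Sox21, a SoxB2 repressor of neural and pluripotency programmes, came nearest on the upper side with 221.8 and 243.4 units in the ES cells, against 79.96 and 87.61 in the reference, and log2 ratios of 0.46 and 0.43. It stood at 0.93 with the negative control spots as background and at 0.12 without background correction, so its size is poorly fixed. Sox4, a SoxC factor of progenitors and lymphocytes, was the lowest Sox gene at -0.39 and -0.52 (361.5 and 384.8 units in ES cells, 421.4 and 440.6 in the reference). Sox17 and Sox7, SoxF factors of primitive endoderm and endothelium, both had mean ratios of 0.03, and Sox18, their relative in vessels, stood at -0.18 and -0.16. Sox17, at 0.03 and 0.04, was above the negative controls in both channels (450.8 and 570.5 units in ES cells, 408.5 and 473.8 in the reference), whereas Sox7 was above them in the ES cells on 1 array only. Sox1, the early neural SoxB1 factor, stood at 0.02 and -0.10, and Sox8, a SoxE gene, at -0.12 and -0.11. Sox3, Sox9, Sox11 and Sox30 were not above the negative controls in the ES cells on either array, and their ratios ran from -0.28 (Sox9, the cartilage and testis factor) to 0.19 (Sox30). For comparison, Sox2 read 51.7-fold higher in the ES cells.

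The Foxa genes, which open liver and gut enhancers, split. Foxa3 was above the pool by a small margin with 717.8 and 723.3 units in the ES cells, against 478.1 and 422.4 in the reference, log2 ratios of 0.59 and 0.57 (limma, adjusted p = 7.38e-05). Foxa1 was below it, with 278.3 and 304.3 units in the ES cells, against 338.4 and 341.4 in the reference, log2 ratios of -0.59 and -0.62 (adjusted p = 6.34e-05). Both ratios were larger than that of any negative control spot and neither reached 2-fold; the signs held under every processing alternative tried. Foxa2, the factor of node, floor plate and definitive endoderm, stood at -0.14 and -0.14.

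The forkhead genes with broad or signalling roles stood beside the pool. Foxh1, the partner of Smads in Nodal signalling, gave strong signals in both channels (3566 and 4121 units in ES cells, 3803 and 3866 in the reference) and ratios of 0.03 and -0.04, with 1 array on each side of 0. The insulin-regulated FoxO genes stood at -0.02 and 0.10 for Foxo1, 0.05 and 0.02 for Foxo3 and 0.01 and -0.06 for Foxo4. After loess none passed at any size. With median centring in its place Foxo1 stood at -0.19 (limma, adjusted p = 0.0236), Foxo4 at -0.13 (adjusted p = 0.0427) and Foxo3 at -0.04 (adjusted p = 0.48). Foxo1 read 1030 and 1259 units in the ES cells and 1155 and 1121 in the reference. Foxm1, which drives mitotic genes, stood at -0.14 and -0.25 (360.6 and 368.0 units in ES cells, 341.2 and 332.8 in the reference). The FoxP genes stood at 0.05 and 0.09 for Foxp3, the regulatory T cell factor, and -0.25 and -0.21 for Foxp4, with a mean of -0.27 for Foxp1, which was above the negative controls in ES cells on 1 array only.

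Of the remaining forkhead genes, Foxn1 stood at 0.01 and 0.02, Foxe1 at 0.05 and -0.04, Foxi1 at -0.07 and -0.01 and Foxl2 at -0.04 and -0.07. Foxn3 stood at 0.16 and 0.04, Foxn4 at -0.17 and -0.16 and Foxb1 at -0.28 and -0.26. None of these reached the edge of the negative control band. Foxj3 and Foxb2 had means of 0.14 and -0.17. Foxn4, a retinal and spinal cord factor, was bright in both channels (3062 and 2670 units in ES cells, 3760 and 2796 in the reference). How much of this signal came from Foxn4 transcript was not tested. Foxj3 and Foxe3 were above the negative controls in ES cells on 1 array only, and Foxb2 on neither.

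T (brachyury), the factor of the primitive streak and notochord, read 364.4 and 493.4 units in the ES cells and 340.6 and 404.8 in the reference. Its log2 ratios of -0.12 and 0.00 did not pass (limma, adjusted p = 0.290). Mixl1, the homeobox gene of early mesendoderm, read 299.6 and 436.8 units in the ES cells, against 344.9 and 471.2 in the reference, with log2 ratios of -0.48 and -0.39, and Tbx6, the factor of presomitic mesoderm, stood at -0.42 ± 0.11 but was above the negative controls in ES cells on 1 array only. Both lay within the band of the negative controls. Tbx2, a repressor in heart and limb, stood at -0.37 and -0.45. Tbx19 of the pituitary stood at -0.01 and -0.01, Tbx20 of the heart at 0.12 and 0.06, Tbx21 of T helper cells at 0.17 and 0.08 and Tbx22 of the palate at -0.02 and 0.02. In the list of 12 measured primitive streak and mesoderm genes, 0 were called in either direction, with ratios from -0.42 (Snai1) to 0.32 (Gsc) and a median of -0.03. At an unadjusted p under 0.05 (limma), 3 lay higher and 4 lower. At an adjusted p under 0.05 and any size, 3 passed as higher and 3 as lower, against 31.6% and 31.4% of all probes.

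Cofactors and targets were read from lists, each by its brightest probe and under the same 2-fold rule. Of 18 measured cofactors of these families, 7 were called lower and 0 higher, with a median of -0.19 beside -0.01 for all probes. At an unadjusted p under 0.05 and any size, 5 lay higher and 10 lower. With the adjusted p, 5 passed as higher and 9 as lower, against 31.6% and 31.4% of all probes. Among partners of GATA factors, Ldb1 (0.23) and Lmo2 (-0.28) were not called and lay within the band of the negative controls. Called lower were the LIM protein gene Lmo4 (-2.19), Lyl1 (-1.56), and the FOG genes Zfpm1 (-1.42) and Zfpm2 (-1.03). Tal1 and Tle2 were not above the negative controls in ES cells, so the reference was at least 1.73-fold and 1.91-fold higher, and Smad3 stood at -1.36. The corepressor gene Tle1 (0.94) and Smad4 (0.69) lay on the other side without reaching 2-fold. Of 12 measured Foxm1 targets, 4 were called higher (Ccnb1 at 1.50, Bub1b at 1.16, Bub1 at 1.03, Kif20a at 1.01) and 0 lower, with a median of 0.75. Foxm1 itself was not called at 2-fold. With no limit on size it passed as lower (-0.20, limma, adjusted p = 0.0118), within the band of the negative controls. The part of Foxm1 in its targets' ratios was not tested. FoxO regulators and targets went both ways, 3 higher (Klf2 at 3.37, Sirt1 at 2.25, Cat at 1.22) and 3 lower of 14, Trib1 being lowest at -2.04, with Ccng2 at -1.85 and Cdkn1b below the negative controls in ES cells.

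Primitive endoderm targets of Gata4, Gata6, Sox17 and Foxa2 were called lower in 4 of 13 cases and higher in 1. Pdgfra (-2.81), Sparc (-2.55) and Col4a1 (-1.72) were lower, Afp was at least 1.78-fold lower, and Lama1 was higher (1.36). Cartilage targets of the SoxD and SoxE factors had 0 calls among 6 measured genes, with ratios from -0.19 (Col11a2) to 0.22 (Matn1). At an unadjusted p under 0.05 (limma) 1 lay higher and 1 lower. With the adjusted p at any size 1 passed as higher and 1 as lower, against 31.6% and 31.4% of all probes. Among 7 neural genes Tubb3 was higher (1.83) and Cdh2 was at least 2.17-fold lower, and the other 5 were not called. The liver list held 1 call among 5 genes, Ahsg at 1.07. All 4 measured macrophage markers were lower, from -2.81 (Lyz2, at least 3.91-fold) to -1.50 (Adgre1). Of 5 epithelial genes of kidney and mammary gland, Cdh1 was higher (3.06), and Krt18 (-4.09) and Krt7 (-1.32) were lower.

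Promoter windows from RefSeq (build GRCm38.p6, 250 bases before to 50 after a start) were found for 42 of the 59 genes, 51 windows in all, among 32851 windows of 27025 genes. The members' windows were rich in CG: their median count of CG pairs was 21, against 7 over all windows, and their median GC content was 62.3%, against 52.7%. The range was wide, from 1 (Tbx22) to 44 (Foxp1). Of the called genes with a window, Foxd1 lay under the members' median and the other 6 above it, with 40 CG in the window of Sox13, 25 in Foxd3, 32 in Foxc1, 27 in Foxf2, 22 in Gata3, 15 in Foxd1, and 29 and 32 in those of Gata2; Tbx15 had no window matched. The windows of Foxd3, the highest forkhead gene, and Foxf2, the lowest, are shown with each CG in capitals, as both are dense in it while their ratios lie at opposite ends.
Foxd3, chr4:99656049-99656348, plus strand: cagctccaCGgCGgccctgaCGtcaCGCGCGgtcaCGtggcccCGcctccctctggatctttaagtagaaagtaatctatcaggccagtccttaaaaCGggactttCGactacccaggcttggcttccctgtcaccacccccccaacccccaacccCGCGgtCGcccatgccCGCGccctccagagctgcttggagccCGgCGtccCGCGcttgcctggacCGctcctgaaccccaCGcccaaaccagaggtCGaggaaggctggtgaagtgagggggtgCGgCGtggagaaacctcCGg
Foxf2, chr13:31625566-31625865, plus strand: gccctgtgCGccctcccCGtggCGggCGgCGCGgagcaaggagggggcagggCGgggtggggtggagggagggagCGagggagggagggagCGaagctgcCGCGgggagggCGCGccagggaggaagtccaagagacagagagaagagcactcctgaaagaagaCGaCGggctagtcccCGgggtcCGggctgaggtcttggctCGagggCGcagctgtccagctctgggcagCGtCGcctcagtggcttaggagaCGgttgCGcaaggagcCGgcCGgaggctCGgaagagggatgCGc

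Letters of known binding motifs were counted on both strands of these windows; a match is a description and not a site. The Klf-type CACCC letters CCCCACCC were present in 11 of the 51 member windows (21.6%) and in 9.99% of all windows. Member windows were also richer in GC (median 62.3%, against 52.7%). The part of base composition in this and the following motif shares was not tested. Among the called genes, Foxf2 and Gata3 held them, and Sox13, Foxd3, Foxc1, Foxd1 and Gata2 did not. The octamer ATGCAAAT was found in 1 member window (Sox1; 1.74% of all windows) and the Sox core ATTGTT in 2 (Foxp1 and Tbx19; 10.7% of all). The forkhead core TGTTTAC was found in 1 (Foxa1; 3.65% of all) and the GATA core AGATAA in 4 (11.2% of all). Probe GC content ran from 23.3% to 76.7% over the members, and across the 59 tested probes its Pearson correlation with the log2 ratio was 0.036; these points share arrays, dyes and normalisation.

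Of the processing alternatives run, the one that moved a called ratio most was for each of the 8 genes either no background correction or the negative control spots as background. Without background correction, only Foxf2 (-1.33) and Tbx15 (-1.31) of the 8 called genes kept at least 2-fold, while Foxc1 stood at -0.998, Foxd1 at -0.65, Gata3 at -0.60 and Gata2 at -0.26. With the negative control spots as background the same 8 genes were called and the ratios widened, to 2.14 for Foxd3, -3.23 for Foxf2, -3.02 for Tbx15 and -1.93 for Gata3. Tbx18 (-1.44), Tbx6 (-1.13) and Foxd4 (1.04) were then called as well. None of the 8 genes changed sign under any alternative run.

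**Figure D4:**
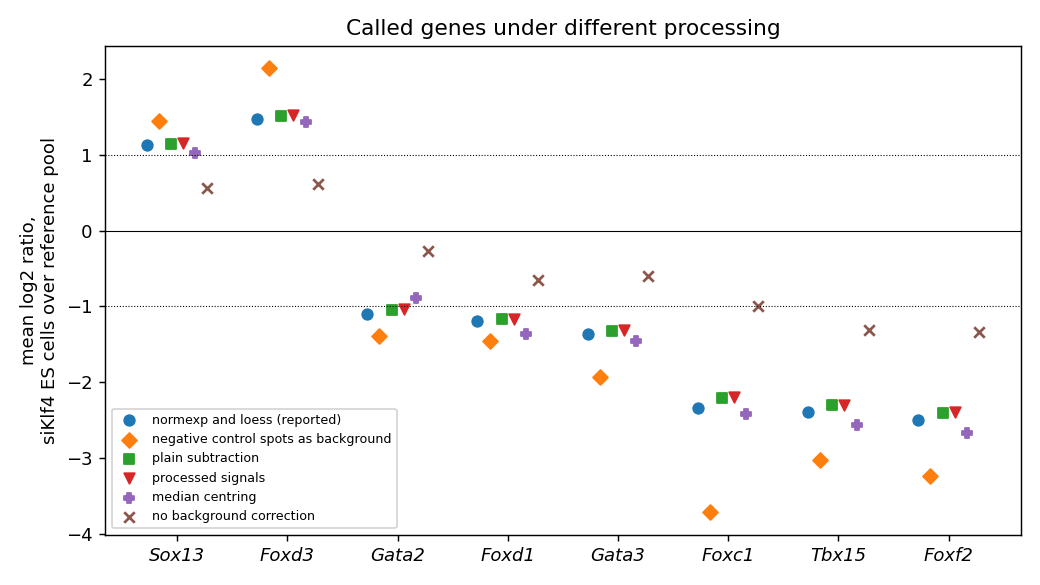
Mean log2 ratio of siKlf4 ES cells over the reference pool (y axis) for the 8 called genes (x axis, Sox13 by its brighter probe), each symbol a way of processing the same 2 arrays; dotted lines mark 2-fold. Ratios without background correction (crosses) lie nearest 0 and those with negative control spots as background (diamonds) farthest, and every gene keeps its side of 0.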

How the data were processed

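RNA was measured on 2 two-colour Agilent arrays, siKlf4 ES cells in Cy3 and the reference pool in Cy5. Per the file headers, the deposited intensity values come from Agilent Feature Extraction A.7.5.1: mean spot signals and local background as scanned, processed signals after background subtraction and LOWESS dye normalisation, and log10 ratios of red over green. A series table of log10 values was also deposited; how the authors made it is not stated in the labels. In 99.62% and 99.61% of its 21052 probes the value equals, within 0.0002, the mean log10 red processed signal less that array's log10 ratio, and its column medians are 2.92 and 2.92. It served only for that comparison.

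Mean signals were corrected by normexp on the local background median (offset 50) and normalised by loess within arrays, control spots at weight 0 (limma 3.58.1, R 4.3.3). The 24 probes marked as outliers were left out. Mean log2 ratios were tested against 0 (limma's moderated test, with 4.24 prior degrees of freedom and 1 residual, and Benjamini-Hochberg adjustment over all probes). Probes were named by RefSeq accession: 10422 probes, 10149 genes. A channel below the negative controls on both arrays gives a bound, computed with that channel raised to their 95th percentile. The calling was tested on simulated data. Named genes were all members, with full values for those called, and up to 4 called genes a list; further list genes, and list genes not called, were named after their values were seen. Members, lists and thresholds were chosen with earlier results of these data known. With 2 arrays the spread is poorly known; they correlated at 0.987 over all probes and 0.992 over members. Alternatives covered background, normalisation, filters, starting signals and each array alone.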

Additional observations from a re-analysis of the deposited data

How the results depend on the processing

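No paired analysis was possible because the samples form 1 group, which leaves no replicate numbers shared between groups; each log2 ratio already sets ES cells against the reference on the same array. Without background correction 0 member probes were at least 2-fold higher and 2 lower, against 3 and 6 as reported. Over all probes 510 were then higher and 467 lower, against 1068 and 1092. In that limma fit, at an unadjusted p under 0.05 and any size, 7 members lay higher and 28 lower. At an adjusted p under 0.05 and any size, 6 members (10.2%) passed as higher and 25 (42.4%) as lower. The shares of all probes were 26.3% and 24.9%. Every other setting kept the members' 2-fold counts near those reported. With the negative control spots as background, an alternative chosen after the data were seen, they were 4 and 8 (over all probes 1457 and 1566). With median centring they were 3 and 5 (over all probes 849 and 1245). With either array left out, the counts of member probes past 2-fold, which then have no test, were 3 and 6 each time, and over all probes 1041 to 1117 higher and 1079 to 1121 lower. Median centring moved the median member to -0.15 (all probes 0.00). Of the 8 called genes, 8 kept their call with plain subtraction, processed signals, no outlier filter and the negative control filters, 7 with median centring (not Gata2) and 2 without background correction. With the outlier mark ignored, Gata5 stood at 0.92 (adjusted p = 0.0797). Signal near the negative controls limits Gata2, Tbx1, Tbx18, Sox3, Sox9, Sox11, Sox30 and Foxb2, not above them in ES cells on either array, and Foxc1, just above.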
